A study of Mus musculus with 32 samples.

Results

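The genes described here are 10 acute phase genes of mouse liver, chosen by name from the 54532 genes of the count table: the serum amyloid A genes Saa1, Saa2, Saa3 and Saa4, the orosomucoid genes Orm1, Orm2 and Orm3, haptoglobin (Hp), hemopexin (Hpx) and lipocalin 2 (Lcn2). Poly-A RNA was sequenced from the livers of wild-type mice that ate either standard chow or a high fat diet without choline and with little methionine (cdHFD), a diet used to bring on steatohepatitis, for 2 weeks. Livers were taken at zeitgeber times (ZT, hours in the light cycle of the animal room) 2, 8, 14 and 20, so that diet and time made 8 groups of 4 libraries, 32 in all. The sexes were balanced, 2 and 2, in 7 of the groups, while 3 males and 1 female made up cdHFD at ZT14. The labels used here give no strain, age or feeding state, and whether each library came from its own animal is not stated, so the p-values speak only of spread between libraries.

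As background, the acute phase response is the change in plasma proteins that hepatocytes make when interleukin 6, interleukin 1 and related signals reach the liver. Interleukin 6 acts through the receptor chains encoded by Il6ra and Il6st on the factor Stat3, interleukin 1 and tumour necrosis factor act through NF-kappa-B, and factors of the C/EBP family bind many of the responding promoters. Saa1 and Saa2 encode the acute serum amyloid proteins carried on high density lipoprotein, Saa4 the constitutive one, and Saa3 a form that is also made outside the liver, in adipose tissue and by macrophages. Orosomucoids bind small molecules in plasma, haptoglobin binds free haemoglobin, hemopexin binds free haem, and lipocalin 2 binds the siderophores with which bacteria take up iron.

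Saa1 (GENCODE M21 on GRCm38, chr7:46740497-46742980, minus strand), Saa2 (chr7:46751790-46754313, plus strand), Saa3 (chr7:46711998-46715700, minus strand) and Saa4 (chr7:46727998-46732603, minus strand) lie side by side on chromosome 7. Orm1 (chr4:63344560-63348163), Orm3 (chr4:63356162-63359511) and Orm2 (chr4:63362449-63365878) follow each other in that order on the plus strand of chromosome 4. Hp (chr8:109575128-109579172), Hpx (chr7:105591613-105600137) and Lcn2 (chr2:32384633-32388252) stand apart, all on the minus strand. The annotation has no exon of another gene overlapping theirs. The neighbours resemble each other in sequence: of all stretches of 50 bases in Saa1 transcripts, 31.1% also occurred in Saa2 transcripts, and 20.4% of those of Orm1 occurred in Orm2, against 3.58% of Orm2 in Orm3 and 0.357% of Saa1 in Saa3. Reads from such stretches cannot be placed with certainty, so levels of Saa1 against Saa2, and of Orm1 against Orm2, are uncertain. The stretches were pooled over all annotated transcripts of a gene, 2519 for Saa1, whose coding transcript has 609 bases. The share within coding transcripts alone was not computed.

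RefSeq start sites (GRCm38.p6) gave a promoter window, from 250 bases before to 50 bases after the start, for 8 of the 10 genes, all but Orm1 and Hp. The windows of 6 genes are printed 5′ to 3′ on the gene's own strand. They pair promoters alike in sequence (Saa1 with Saa2, Orm2 with Orm3), and add the 2 genes at the ends of the range of diet differences (Saa4 and Lcn2). Capitals mark every match, on either strand, to the letters TTNNGNAA (C/EBP), TTCNNNGAA (STAT), CTGGGAA (the interleukin 6 responsive element) and, for NF-kappa-B, GGG and CC with 5 bases of any kind between them. They are Saa1 at chr7:46742931-46743230, Saa2 at chr7:46751583-46751882, Saa4 at chr7:46732554-46732853, Orm2 at chr4:63362199-63362498, Orm3 at chr4:63355908-63356207 and Lcn2 at chr2:32387690-32387989.
Saa1: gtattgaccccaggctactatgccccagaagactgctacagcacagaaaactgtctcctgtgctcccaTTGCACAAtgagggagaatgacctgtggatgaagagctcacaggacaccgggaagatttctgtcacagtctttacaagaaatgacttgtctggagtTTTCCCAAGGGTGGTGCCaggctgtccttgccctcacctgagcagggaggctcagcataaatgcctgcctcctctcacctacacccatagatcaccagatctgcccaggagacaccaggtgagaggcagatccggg
Saa2: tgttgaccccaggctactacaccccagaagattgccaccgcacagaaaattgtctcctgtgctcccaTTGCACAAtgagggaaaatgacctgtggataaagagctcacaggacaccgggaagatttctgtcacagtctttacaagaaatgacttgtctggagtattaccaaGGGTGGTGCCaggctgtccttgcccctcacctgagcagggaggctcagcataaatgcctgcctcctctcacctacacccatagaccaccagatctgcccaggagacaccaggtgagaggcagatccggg
Saa4: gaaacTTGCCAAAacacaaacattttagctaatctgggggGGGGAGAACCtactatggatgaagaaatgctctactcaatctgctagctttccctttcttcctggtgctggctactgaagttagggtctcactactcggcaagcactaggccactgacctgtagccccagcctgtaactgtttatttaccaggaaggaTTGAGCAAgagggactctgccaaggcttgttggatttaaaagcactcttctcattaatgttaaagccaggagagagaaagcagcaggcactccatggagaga
Orm2: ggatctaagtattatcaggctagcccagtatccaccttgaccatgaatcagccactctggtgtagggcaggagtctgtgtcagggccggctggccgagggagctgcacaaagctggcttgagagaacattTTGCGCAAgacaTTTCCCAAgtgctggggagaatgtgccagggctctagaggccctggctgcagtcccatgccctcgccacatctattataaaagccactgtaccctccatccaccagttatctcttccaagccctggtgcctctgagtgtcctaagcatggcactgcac
Orm3: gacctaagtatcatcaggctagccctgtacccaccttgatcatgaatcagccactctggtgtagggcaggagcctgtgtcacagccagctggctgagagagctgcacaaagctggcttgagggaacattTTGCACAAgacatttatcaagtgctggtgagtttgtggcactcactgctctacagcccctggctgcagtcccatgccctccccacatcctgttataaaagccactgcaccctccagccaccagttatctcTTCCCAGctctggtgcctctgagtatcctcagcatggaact
Lcn2: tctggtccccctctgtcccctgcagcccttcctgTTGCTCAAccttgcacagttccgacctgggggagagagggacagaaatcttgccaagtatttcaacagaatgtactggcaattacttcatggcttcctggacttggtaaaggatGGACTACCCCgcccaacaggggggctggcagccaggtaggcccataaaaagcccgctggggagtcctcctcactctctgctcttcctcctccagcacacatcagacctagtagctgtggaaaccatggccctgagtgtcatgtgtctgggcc
The Saa1 and Saa2 windows were identical at 287 of 299 aligned bases, and the Orm2 and Orm3 windows at 263 of 295. In Saa1 the first C/EBP match began 182 bases before the start (TTGCACAA), and a second (TTTCCCAA) directly before the NF-kappa-B match (GGGTGGTGCC). Saa2 had the first C/EBP match and the NF-kappa-B match and not the second C/EBP match. Orm2 held C/EBP matches as TTGCGCAA and TTTCCCAA, where Orm3 held TTGCACAA alone and, 10 bases into the transcript, the reverse complement of the interleukin 6 responsive letters (TTCCCAG). Saa3 and Hpx, not printed, held 4 and 2 C/EBP matches. Each of the 8 windows had a C/EBP match, none had a STAT match, and Saa1, Saa2, Saa4 and Lcn2 had an NF-kappa-B match. Short letters of this kind are common: of 32851 promoter windows, 40.7% held the C/EBP letters, 50.8% the NF-kappa-B letters, 11.1% the interleukin 6 responsive letters and 8.30% the STAT letters.

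Libraries held between 29512682 and 54572362 counted reads (median 37217912), and the library totals of the diets overlapped. Levels are CPM, a gene's counts brought to a common library size, with library sizes scaled by trimmed mean of M-values (TMM), a method that assumes most genes do not change. The scaling matters here. The 2 diets had TMM factors that did not overlap (0.746 to 0.918 in chow, 1.08 to 1.38 in cdHFD), albumin reads were 8.36 ± 1.55% of a chow library and 4.90 ± 0.454% of a cdHFD library (SD, n = 16 each), and with total counts alone the median log2 fold change of all 17853 genes tested moved from -0.02 to 0.56. The libraries carried hepatocyte RNA: all 11 hepatocyte markers had counts in both diets, and their summed level was 123357 to 198061 CPM in chow and 48793 to 82958 CPM in cdHFD.

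On the cdHFD, 7 of the 10 genes rose (Saa1, Saa2, Saa3, Orm2, Hp, Hpx and Lcn2), 2 fell (Saa4 and Orm1, the latter only after TMM scaling) and Orm3 did not pass the test (it did, as higher, with total counts alone), in edgeR's quasi-likelihood test of the diet difference averaged over the 4 times with Benjamini-Hochberg adjustment over all genes. The diet moved much of the transcriptome: the same test called 62.1% of genes, 31.0% higher and 31.2% lower, so 9 of 10 members were called beside 62.1% of all genes, and 7 of 10 were higher beside 31.0%. The members' median log2 fold change was 1.54, beside -0.02 for all genes tested. With total counts alone 12353 of 17853 genes were called higher and 1632 lower, and the medians were 2.12 for the members and 0.56 for all genes. Reads of the 10 genes together were 0.839 ± 0.0879% of a chow library and 2.48 ± 0.223% of a cdHFD library (SD, n = 16 each). The ranges of this share, 0.618 to 0.974% and 2.15 to 2.81%, did not overlap.

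Lcn2 had the widest diet difference of the 10 and rank 7 of 17853 genes tested by log2 fold change. Its level ran from 1.50 to 22.2 CPM in chow (median 8.15) and from 634.8 to 1356 CPM in cdHFD (median 1041). Every cdHFD library lay far above every chow library. The log2 fold change was 7.14 ± 0.28 (SE, edgeR adjusted p = 2.97e-16). On a scale per kilobase of exon (RPKM, all exons), Lcn2 stood at rank 9 of the 10 genes in chow, at 3.43 ± 2.40, and at rank 4 in cdHFD, at 385 ± 89.0 (SD, n = 16 each). With the length of the median coding transcript instead its ranks were 9 and 3.

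Among the serum amyloid genes, the acute forms and Saa3 went up and the constitutive form went down. Saa1 ran from 15.4 to 114 CPM in chow (median 34.3) and from 103 to 289 CPM in cdHFD (median 174). The diets overlapped through a single library, chow ZT14 replicate 1 at 114 CPM, and without it the log2 fold change at ZT14 was 2.17 in place of 1.56. Averaged over times it was 2.16 ± 0.18 (edgeR adjusted p = 8.07e-12). Saa2 spanned 5.73 to 32.7 CPM in chow (median 18.8) and 39.8 to 134.9 CPM in cdHFD (median 69.4), with no overlap and a log2 fold change of 2.00 ± 0.24 (adjusted p = 2.02e-08). Saa3 ran from 3.68 to 17.6 CPM in chow (median 7.54) and from 32.1 to 118 CPM in cdHFD (median 52.1), again without overlap, and its log2 fold change of 2.70 ± 0.19 (adjusted p = 1.67e-13) was the highest of the serum amyloid genes.

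Saa4, the constitutive serum amyloid gene, ran from 201 to 449.9 CPM in chow (median 257) and from 80.1 to 223 CPM in cdHFD (median 126). Every cdHFD library except replicate 2 at ZT8 lay below the chow range. It fell by 1.07 ± 0.08 on the log2 scale (edgeR adjusted p = 1.01e-12), and with total counts alone it fell by 0.50 (adjusted p = 3.69e-07), below a median of all genes of 0.56 on that scaling. Within a library, where no scaling enters, the log2 ratio of Saa4 to Saa1 counts was 2.95 ± 0.579 in chow and -0.37 ± 0.43 in cdHFD (SD, n = 16 each). The ratio lay between 1.84 and 4.13 in chow, so that Saa4 had more reads than Saa1 in every library, and between -1.27 and 0.51 in cdHFD. The difference of -3.31 passed a two-sided permutation test (adjusted p = 2.33e-05 over 7 ratios, from the smallest p that 100000 resamples can give, 1e-05).

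The 3 orosomucoid genes differed from each other. Orm1, the most abundant of them, ran from 708 to 1661 CPM in chow (median 1045) and from 573 to 964 CPM in cdHFD (median 747), and the diets overlapped. Its log2 fold change was -0.52 ± 0.09 after TMM scaling (edgeR adjusted p = 6.01e-06) but 0.054 with total counts alone (adjusted p = 0.544), so its direction depends on the scaling. Orm2 ran from 5.30 to 43.2 CPM in chow (median 19.8) and from 52.5 to 193 CPM in cdHFD (median 73.2), without overlap, and rose by 2.15 ± 0.19 (adjusted p = 3.20e-11). The log2 ratio of Orm2 to Orm1 counts went from -5.80 ± 0.852 to -3.17 ± 0.486 (SD, n = 16 each; permutation adjusted p = 2.33e-05). Orm1 still had the more reads of the pair in every library. Orm3 ran from 0.858 to 24.6 CPM in chow (median 6.59) and from 2.72 to 11.6 CPM in cdHFD (median 5.80), so that the chow libraries enclosed the cdHFD ones, and its averaged log2 fold change of 0.18 ± 0.33 did not pass the test (adjusted p = 0.65). It was 0.75 with total counts alone (adjusted p = 0.0335) and -0.39 without a sex term (adjusted p = 0.45), so its direction and call depend on the fit. With total counts alone the median of all genes tested was 0.56.

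Hp and Hpx, whose products bind free haemoglobin and free haem, both rose. Hp ran from 2813 to 5834 CPM in chow (median 4421) and from 6680.5 to 11757 CPM in cdHFD (median 9182). Hpx ran from 3739 to 5168 CPM in chow (median 4489.8) and from 6900.4 to 10766 CPM in cdHFD (median 9035). In neither gene did the diets overlap. Log2 fold changes were 1.08 ± 0.07 for Hp and 1.01 ± 0.06 for Hpx (edgeR adjusted p = 7.36e-13 and 2.35e-13). The log2 ratio of Hpx to Hp counts was 0.05 ± 0.277 in chow and -0.02 ± 0.151 in cdHFD (SD, n = 16 each), a difference that did not pass the permutation test (adjusted p = 0.368). These 2 genes were the highest of the 10 per kilobase in both diets and alone made up 0.720 ± 0.0740% of the reads on chow and 2.20 ± 0.198% on the cdHFD.

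**Figure D1:**
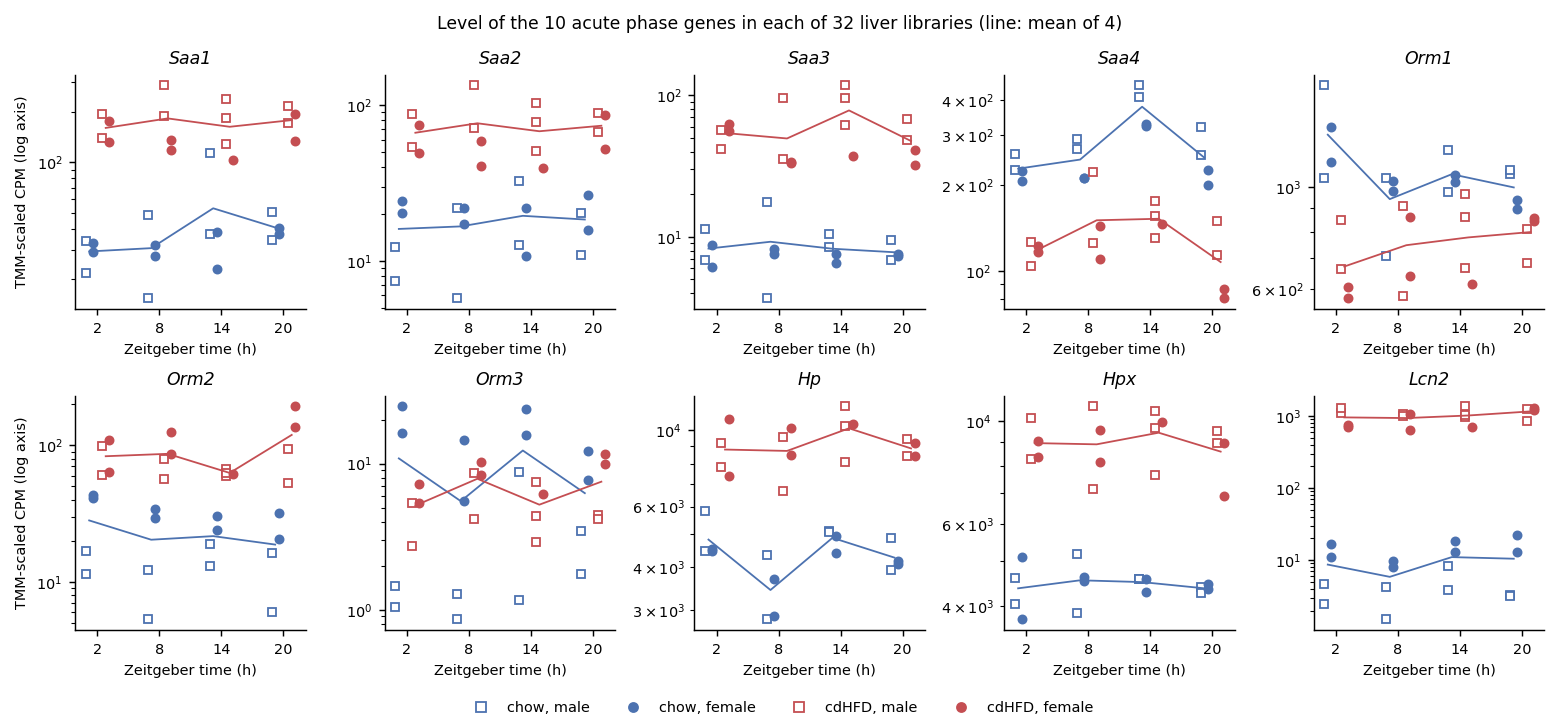
TMM-scaled CPM (log axis) of each gene against zeitgeber time, with 1 point per library (squares male, circles female), chow in blue, cdHFD in red and lines through the means of 4 libraries. The cdHFD points lie above the chow points at every time for Saa2, Saa3, Orm2, Hp, Hpx and Lcn2, whereas those of Saa4 lie below except at ZT8, and Orm3 overlaps throughout.

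The diet difference was present at each time of day for most of the genes. Saa1, Saa2, Saa3, Orm2, Hp, Hpx and Lcn2 were called higher and Saa4 lower at all 4 times, and Orm1 lower at ZT2 and ZT14 but not at ZT8 or ZT20, by edgeR's test at each time, which called 41.7% of all genes at ZT2, 40.0% at ZT8, 35.6% at ZT14 and 39.1% at ZT20. Log2 fold changes of Lcn2 ran from 6.92 ± 0.55 at ZT14 to 7.54 ± 0.55 at ZT8, and those of Orm2 from 1.79 ± 0.39 at ZT2 to 2.67 ± 0.39 at ZT20. Saa4 fell least at ZT8, by 0.71 ± 0.15, and most at ZT14, by 1.37 ± 0.16. Orm1 fell by 0.95 ± 0.17 at ZT2 and by 0.48 ± 0.17 at ZT14, and had values of -0.33 ± 0.17 at ZT8 and -0.31 ± 0.17 at ZT20. With total counts alone the 3 later values turned to 0.28, 0.070 and 0.28, the call of Saa4 at ZT8 was lost (-0.10, adjusted p = 0.548) and Orm3 was called higher at ZT8 (1.70, adjusted p = 0.0199).

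None of the 10 genes was called in edgeR's test that the diet difference was the same at all 4 times, which called 5.77% of all genes. Saa4 had the lowest adjusted p in it (0.165), followed by Orm1 (0.213). At an unadjusted p under 0.05 it held 1 member, Saa4, and DESeq2 also called 0. Without a filter on low counts edgeR's test called Saa1, Orm2 and Orm3 (adjusted p = 0.0105, 0.0257 and 2.74e-05), beside 2639 of 34789 genes. The standard errors at single times, from 0.13 for Hpx to 0.65 for Orm3, limit what such a test can see.

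**Figure D2:**
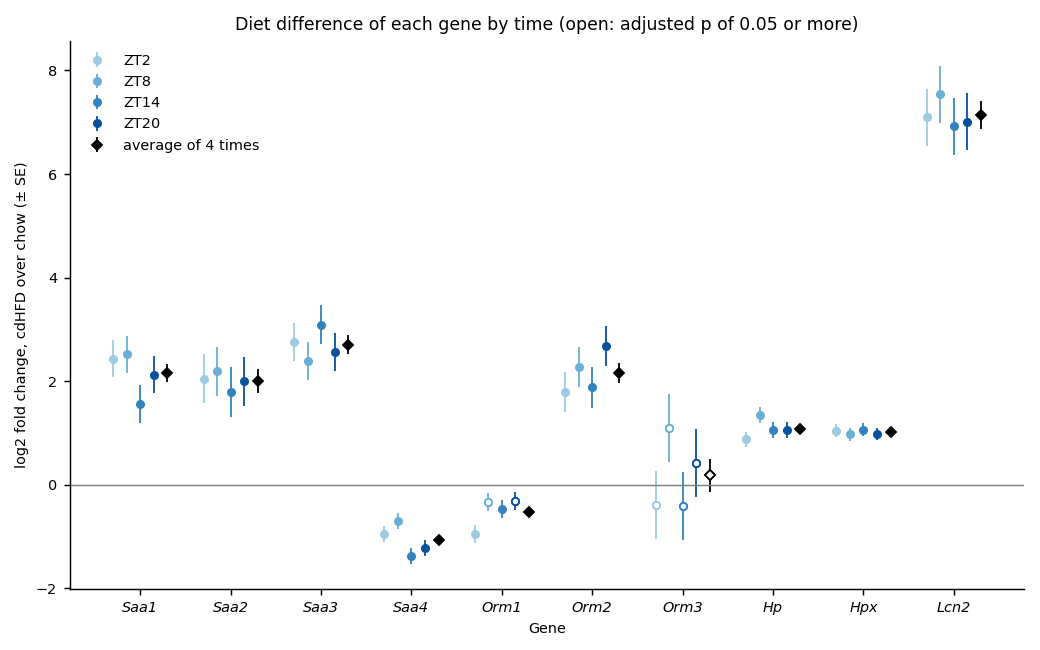
Log2 fold change of cdHFD over chow (points, with SE bars) for each gene at ZT2, ZT8, ZT14 and ZT20 (blue) and averaged over times (black diamonds), where open symbols mark an adjusted p of 0.05 or more in edgeR's test. Lcn2 stands near 7 at every time, Saa1, Saa2, Saa3 and Orm2 lie between 1.56 and 3.09, Hp and Hpx near 1, Saa4 below 0, and Orm1 below 0 after TMM scaling (its average is 0.054 with total counts alone).

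Differences between times were tested within each diet. In chow, edgeR called 32.1% of all genes and, of the 10, Saa4 (adjusted p = 0.00273) and Hp (adjusted p = 0.0444). Saa4 stood at 229 ± 21.7 CPM at ZT2, 246 ± 39.8 at ZT8, 378 ± 61.6 at ZT14 and 251 ± 51.3 at ZT20 (SD, n = 4 each). All 4 libraries at ZT14, from 323 to 449.9 CPM, lay above every other chow library. Hp was lowest at ZT8, at 3428 ± 718 CPM, against 4807 ± 685 at ZT2, 4865 ± 318 at ZT14 and 4259 ± 407 at ZT20. That call was lost when any of 19 libraries was left out, with adjusted p between 0.0180 and 0.161, and under a fit of 24 h cosine and sine terms (0.451). In cdHFD the test called 5.43% of all genes and none of the 10 (1 at an unadjusted p under 0.05, and 1 by DESeq2), where Saa4 stood at 153 ± 19.2 CPM at ZT14 and between 108 and 151 CPM on average at the other times (adjusted p = 0.114). Whether the time differences of Saa4 changed with the diet is the test above, which it did not pass.

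Sex separated some of the genes in chow. Females had higher levels of Lcn2, Orm3 and Orm2 and lower levels of Saa4 in edgeR's test of sex within chow, which called 9.47% of all genes (6.12% higher and 3.36% lower in females), and no member was called in cdHFD, where 0.941% of genes were (4 members at an unadjusted p under 0.05, and 0 by DESeq2). Without a filter on low counts, Orm2 and Orm3 were called higher and Saa1, Saa2 and Saa3 lower in cdHFD females. Of 34789 genes, 273 were then called higher and 218 lower. Lcn2 in chow ran from 1.50 to 8.33 CPM in 8 males (median 3.59) and from 7.98 to 22.2 CPM in 8 females (median 13.1). The sexes overlapped through 1 male at ZT14. The log2 difference of females over males was 1.85 ± 0.22 (adjusted p = 2.42e-07). In cdHFD, 9 males ran from 858 to 1356 CPM (median 1063) and 7 females from 634.8 to 1297 CPM (median 742), and the difference was -0.33 ± 0.23 (adjusted p = 0.818). The test of the change itself, which called 1.85% of all genes (0.807% with a difference that rose and 1.05% with one that fell), gave -2.17 ± 0.32 for Lcn2 (adjusted p = 2.88e-05). Within a sex, the log2 fold change of Lcn2 with the diet was 8.18 ± 0.22 in males and 6.01 ± 0.23 in females, where the test of diet within a sex called 53.0% of all genes in males (26.6% higher, 26.4% lower) and 46.3% in females (4291 genes higher, 3970 lower).

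Orm3 rose with the diet in males, while its fall in females depended on the fit. In chow it ran from 0.858 to 8.69 CPM in males (median 1.37) and from 5.52 to 24.6 CPM in females (median 15.1), a log2 difference of 2.74 ± 0.35 (edgeR adjusted p = 3.01e-06). A single chow male, replicate 2 at ZT14, stood within the female range. In cdHFD the males ran from 2.72 to 8.63 CPM (median 4.40) and the females from 5.35 to 11.6 CPM (median 8.41), with a difference of 0.74 ± 0.36 that did not pass the test (adjusted p = 0.583). The sex difference fell by 2.01 ± 0.51 with the diet (adjusted p = 0.0231, and 0.0534 at most with a library left out, where leaving out any of 4 libraries ended the call: chow ZT2 replicates 1 and 2, cdHFD ZT2 replicate 2 and cdHFD ZT14 replicate 4). Within males Orm3 rose by 1.17 ± 0.34 (adjusted p = 0.00476) and within females it fell by 0.83 ± 0.37 (adjusted p = 0.0438). The fall in females was lost when any of 14 libraries was left out and with total counts alone (-0.28, adjusted p = 0.464). Within a library, the log2 ratio of Orm3 to Orm1 counts moved with the diet by 1.84 in males and by -0.16 in females. These values rest on few reads, 28 to 89 counts of Orm3 a library in 7 of the 8 chow males.

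Orm2 in chow ran from 5.30 to 19.0 CPM in males (median 12.6) and from 20.6 to 43.2 CPM in females (median 31.2), so every female lay above every male. Its log2 difference was 1.36 ± 0.25 (edgeR adjusted p = 1.03e-04), and in cdHFD 0.51 ± 0.25 (adjusted p = 0.553), with a change of -0.85 ± 0.35 that did not pass the test (adjusted p = 0.232). Saa4 was lower in chow females, with medians of 280.0 CPM in males and 218 CPM in females and a log2 difference of -0.35 ± 0.11 (adjusted p = 0.0493). That call was lost with total counts alone and when any of 21 libraries was left out, with adjusted p up to 0.117. Saa1, Saa2, Saa3, Orm1, Hp and Hpx had log2 differences between -0.34 and 0.41 in chow, none of which passed.

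**Figure D3:**
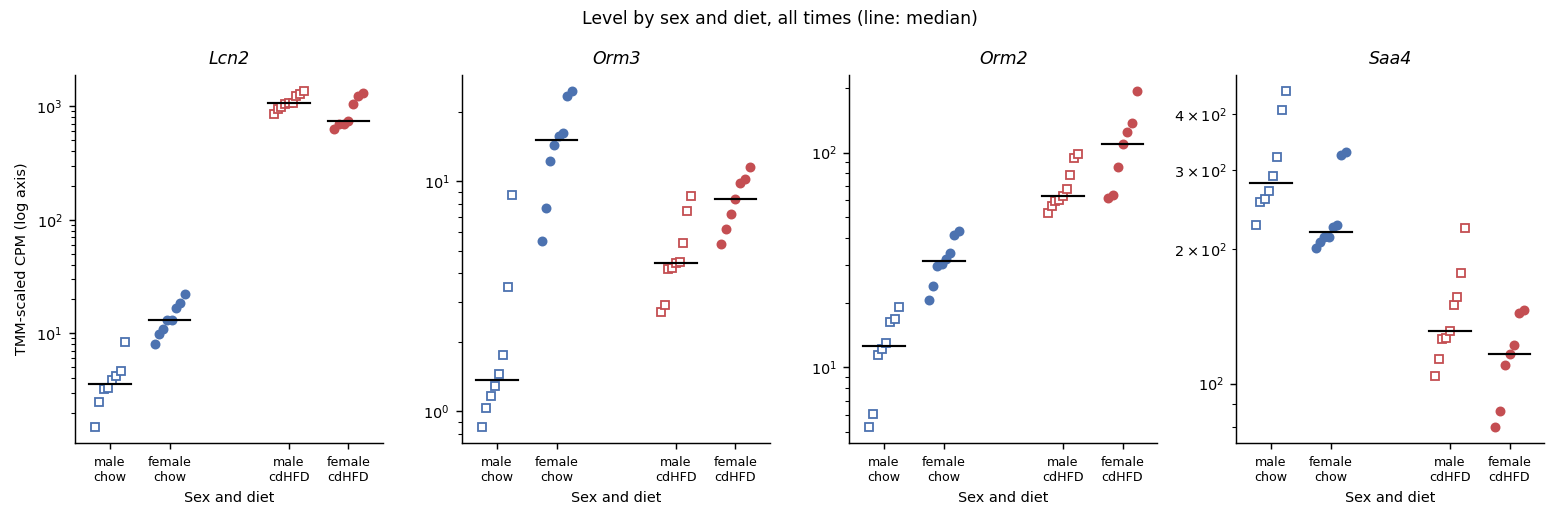
TMM-scaled CPM (log axis) of Lcn2, Orm3, Orm2 and Saa4 in each library, by sex (squares male, circles female) and diet (blue chow, red cdHFD), with the median as a line and libraries of all times together. Chow females have higher medians than chow males for Lcn2 (medians 13.1 and 3.59 CPM), Orm3 (15.1 and 1.37 CPM) and Orm2 (31.2 and 12.6 CPM), and the sexes overlap in cdHFD in all 4 panels.

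Ratios of counts within a library do not depend on the scaling between libraries. Besides the ratios above, Lcn2 to Saa3 rose from a log2 ratio of -0.21 ± 1.21 to 4.22 ± 0.640 (SD, n = 16 each; permutation adjusted p = 2.33e-05) and Saa3 to Saa1 from -2.12 ± 0.548 to -1.65 ± 0.483 (adjusted p = 0.0177). Saa2 to Saa1 (-0.17, adjusted p = 0.182) and Orm3 to Orm1 (0.78, adjusted p = 0.136) did not pass over both sexes together, but Orm3 to Orm1 passed when diets were permuted within time and sex (adjusted p = 0.0458). Split by sex, Saa2 to Saa1 in chow was -0.74 ± 0.309 in females and -1.49 ± 0.204 in males (SD, n = 8 each; exact permutation test, adjusted p = 9.79e-04 over 14 tests), and in cdHFD -1.32 ± 0.133 and -1.26 ± 0.103 (adjusted p = 0.5). In chow the sexes thus differed in this ratio although neither gene was called for sex. The change with diet was -0.81, with an adjusted p of 3.50e-04 when diet labels were permuted within sex and 0.00133 when sex labels were permuted within diet. Neither scheme tests the change alone, for the reason given below.

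Orm3 to Orm1 was higher in females by 2.94 in chow and by 0.94 in cdHFD, and Orm2 to Orm1 by 1.47 and 0.71, all past the exact permutation test (adjusted p between 9.79e-04 and 0.00245). Lcn2 to Saa3 was higher in chow females by 2.12 (adjusted p = 9.79e-04) and by 0.33 in cdHFD (adjusted p = 0.5). The tests of the change of these ratios depended on what was permuted. Permuting diets within a sex also mixes the diet difference itself, and permuting sexes within a diet mixes the sex difference. Neither scheme therefore tests the change alone. Lcn2 to Saa3 differed between the diets by 5.34 in males and 3.56 in females, which widens the spread under permuted diets. Orm3 to Orm1 changed by -2.0, with adjusted p = 0.00336 under permuted diets and 0.0624 under permuted sexes, and Lcn2 to Saa3 by -1.79, with 0.516 and 0.0259. The second scheme was added after the p-values of the first were seen.

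**Figure D4:**
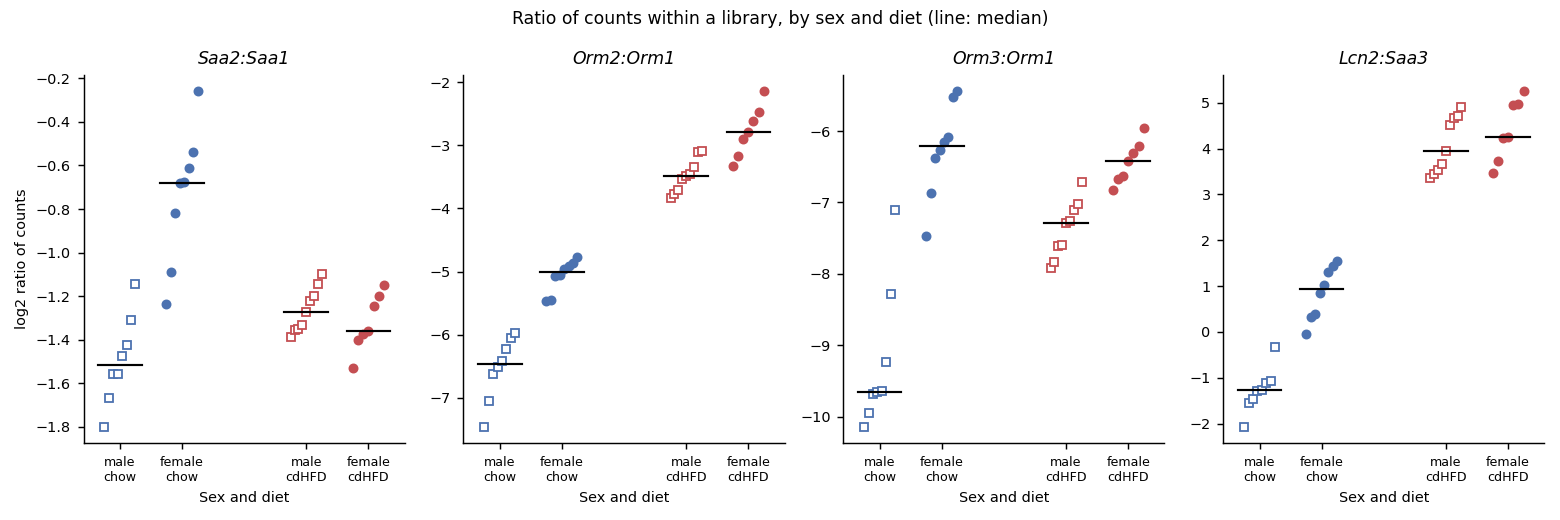
Log2 ratio of the counts of 2 genes within each library, by sex (squares male, circles female) and diet (blue chow, red cdHFD), with the median as a line, for Saa2:Saa1, Orm2:Orm1, Orm3:Orm1 and Lcn2:Saa3. Chow females have higher medians than chow males in all 4 panels, and for Saa2:Saa1 the cdHFD sexes lie together, at means of -1.32 and -1.26.

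Among libraries of the same diet, with the means of time and sex removed, the genes varied together in part. Of 90 pairs (45 in each diet, 16 libraries each), 84 had a positive Pearson r and 25 passed the permutation test after adjustment over the 90, 11 in chow and 14 in cdHFD, of which 17 also passed by Spearman's rho. That test shuffled the 16 values of a diet freely, as if no means had been removed from them. Its p-values, here and below, thus tend to be too small and the counts of pairs too high. The same counts were not made for pairs of other genes. Whether these genes varied together more than other genes did was therefore not tested. Points in such a plot share each library's scaling factor, and with total counts alone 11 pairs passed. Saa1 with Saa2, whose transcripts share stretches of sequence, had r = 0.95 and rho = 0.921 in chow and r = 0.984 and rho = 0.979 in cdHFD (adjusted p = 4.50e-04 for each), and r = 0.923 and 0.977 without the 2 libraries farthest from the median of Saa1.

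In cdHFD, Orm2 with Lcn2 had r = 0.804 and rho = 0.753 (adjusted p = 0.00495 and 0.0181; r = 0.694 without the 2 farthest libraries), Orm1 with Orm2 r = 0.783 and rho = 0.856 (0.00666 and 0.00270; r = 0.803), and Orm1 with Lcn2 r = 0.731 and rho = 0.741 (0.0171 and 0.0181; r = 0.833). Hp with Hpx had r = 0.793 and rho = 0.738 (0.00495 and 0.0181; r = 0.637), which with total counts alone was 0.620 and no longer passed (0.0548). In chow the strongest pair after Saa1 and Saa2 was Saa3 with Orm2, at r = 0.700 and rho = 0.753 (0.0171 and 0.0181; r = 0.667). Hpx with Lcn2 followed, at r = 0.688 and rho = 0.738 (0.0224 and 0.0181; r = 0.632). Orm1 and Orm2 also share stretches of sequence (20.4% of those of Orm1), so some of their reads cannot be placed with certainty. The part of such reads in the r values of Orm1 and Orm2 was not tested. Within cdHFD, Lcn2 had an r of -0.07 with Saa3. With the means of sex left in, r was 0.297 for Orm2 with Lcn2 and 0.497 for Orm1 with Orm2 in cdHFD, and 0.157 for Saa3 with Orm2 and 0.323 for Hpx with Lcn2 in chow, and none of these 4 pairs passed (adjusted p between 0.142 and 0.749).

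**Figure D5:**
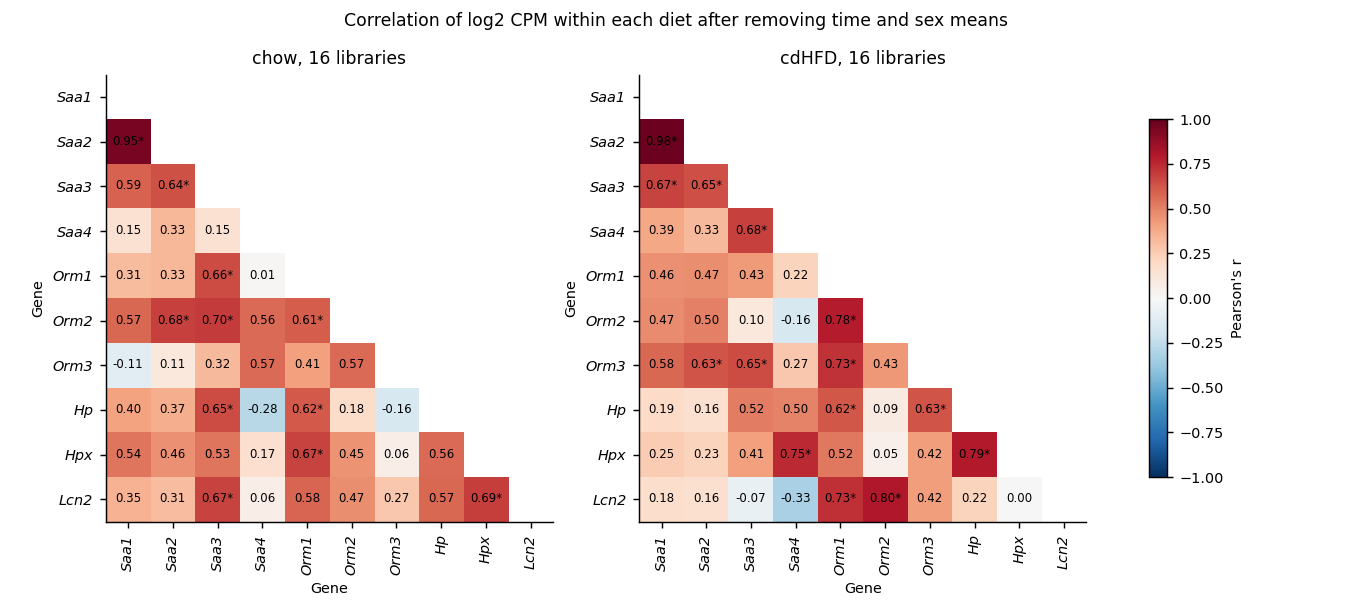
Pearson's r between the log2 CPM of each pair of genes over the 16 chow libraries (left) and the 16 cdHFD libraries (right), after removing the means of time and sex, with an asterisk where the adjusted permutation p is under 0.05. That p tends to be too small, because the shuffling took no account of the means removed. Saa1 with Saa2 is darkest in both (0.95 and 0.98), and Orm1 and Orm2 join Lcn2 in cdHFD.

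Over all 32 libraries with group means and sex removed, the genes most like each of 5 members were ranked by Pearson's r among all genes tested, as a description. Saa1 was most like Saa2 (0.91), Nfkbia (0.78), which encodes an inhibitor of NF-kappa-B, and Cxcl14 (0.73), a chemokine gene. Saa3 was most like Gm48908 (0.77), Serpina1c (0.75), an alpha-1 antitrypsin gene, and Setd4 (0.75). Orm1 was most like Aldh3b1 (0.73), 1110008P14Rik (0.72) and Klhdc4 (0.72), and Hp most like Psmb5, Mrps7 and Phb (each 0.88). For Lcn2 the closest were Sult3a1 (0.87), a sulfotransferase gene, Stambpl1 (0.85) and 9030619P08Rik (0.83), where a sex difference that changed with diet remains in the values compared.

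Il6, an inducer of the acute phase response, was low in liver RNA. It was listed at 0.0481 ± 0.0483 CPM in chow and 0.105 ± 0.0925 CPM in cdHFD (SD, n = 16 each) and had too few counts to be tested. Of 12 ligand genes listed, Il6 among them, 9 were tested, of which 7 rose and 1 fell (median log2 fold change 1.59), beside 31.0% of all genes called higher and 31.2% lower. With total counts alone 8 rose and 0 fell, where 12353 of 17853 genes were called higher and 1632 lower. The ligand genes that rose were led by Lif (3.41 ± 0.21), Osm (3.29 ± 0.24), Tnf (3.26 ± 0.24) and Clcf1 (2.19 ± 0.15), cytokines that signal in part through Il6st or NF-kappa-B. Levels in cdHFD were 0.35 ± 0.116 CPM for Osm, 1.53 ± 0.875 CPM for Lif, 3.50 ± 1.36 CPM for Tnf and 16.6 ± 5.22 CPM for Clcf1.

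Receptor and kinase genes were split, with 12 of 16 higher and 3 lower (median 0.38), beside 31.0% and 31.2% of all genes. Cd14 and Tlr2, of the endotoxin and lipoprotein response, rose by 3.40 ± 0.17 and 2.91 ± 0.14, while Lifr, the receptor chain for leukaemia inhibitory factor, fell by 2.42 ± 0.11, from 314 to 56.6 CPM. Il6ra fell by 0.43 ± 0.12 and Il6st rose by 0.23 ± 0.05 (edgeR adjusted p = 0.00144 and 9.20e-04). With total counts alone the value of Il6ra was 0.14, of the other sign.

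Of 13 transcription factor genes, 6 rose and 5 fell (median 0.20), where 31.0% of all genes rose and 31.2% fell after TMM scaling. With total counts alone 9 rose and 2 fell, where 12353 of 17853 genes rose and 1632 fell. Atf3 rose by 3.98 ± 0.15, Relb by 2.57 ± 0.14, Cebpd by 1.67 ± 0.15 and Nfkb2 by 1.64 ± 0.09. Stat3 fell by 0.21 ± 0.09 (edgeR adjusted p = 0.0412) and Nr3c1, the glucocorticoid receptor, by 0.39 ± 0.10, while Cebpb had 0.33 ± 0.16 and missed the threshold (adjusted p = 0.0501). Cebpb passed as higher in each of 5 other settings, at 0.90 with total counts alone (adjusted p = 1.15e-06) and between 0.31 and 0.35 with DESeq2, without a filter, without a sex term and with the replicate block, and when any of 11 libraries was left out. The call of Stat3 was lost when any of 16 libraries was left out. With total counts alone Stat3 was 0.37 (adjusted p = 8.36e-04) and Nr3c1 0.19, so their direction depends on the scaling. Of 10 inhibitors of these signals 7 rose and none fell (median 1.15), with Il1rn at 3.88 ± 0.26 and Tnfaip3 at 3.40 ± 0.14. Socs3, the feedback inhibitor that Stat3 switches on, had a log2 fold change of -0.03 ± 0.17 (adjusted p = 0.886), and 0.55 with total counts alone (adjusted p = 0.00255). On that scaling the median of all genes tested was 0.56, so the values of Socs3, Stat3 and Nr3c1 did not exceed it.

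Other acute phase genes did not move as a block. Of 24 further positive acute phase genes, 23 were tested, of which 10 rose and 12 fell (median -0.45), where 31.0% of all genes rose and 31.2% fell after TMM scaling. With total counts alone 11 rose and 7 fell, where 12353 of 17853 genes rose and 1632 fell. Cd14 and Il1rn were among those that rose. Crp fell by 0.93 ± 0.16 and the hepcidin gene Hamp2 by 2.44 ± 0.37, and Apcs, the serum amyloid P gene and a major acute phase gene of the mouse, rose by 0.36 ± 0.13 (edgeR adjusted p = 0.0133), a call that was lost without a sex term (0.24, adjusted p = 0.170). Of 12 negative acute phase genes 10 fell and none rose (median -1.23), or 8 and 3 with total counts alone. Log2 fold changes were -1.31 ± 0.07 for Alb, -1.59 ± 0.08 for Ttr, -1.62 ± 0.12 for Apoa2 and -2.05 ± 0.13 for Igfals. Hepatocyte markers fell too, 10 of 11 (median -1.13), with 8 lower and 2 higher with total counts alone. In bulk liver RNA, fewer cells of a type and less RNA per cell cannot be told apart.

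Among partners of the proteins and routes of their clearance, 6 of 12 genes rose and 4 fell (median 0.28), where 31.0% of all genes rose and 31.2% fell after TMM scaling. With total counts alone 9 rose and 2 fell, where 12353 of 17853 genes rose and 1632 fell. Hmox1, which breaks down haem, rose by 2.57 ± 0.13, from 21.9 to 127 CPM. Cd163, the macrophage receptor for haptoglobin bound to haemoglobin, had 0.16 ± 0.16 (edgeR adjusted p = 0.368), but 0.73 with total counts alone, which passed (adjusted p = 9.48e-05). The median of all genes tested was 0.56 on that scaling. Slc22a17, described as a lipocalin 2 receptor, rose by 0.63 ± 0.17, and Fpr2, a receptor for serum amyloid A, by 1.71 ± 0.16. Lrp2, another receptor for lipocalin 2, fell by 2.97 ± 0.42 from 0.869 to 0.0920 CPM. Of 9 glucocorticoid target genes 1 rose, Sgk1 by 1.21 ± 0.14, and 4 fell (median -0.25), among them Tat, by 1.29 ± 0.22. With total counts alone 4 rose and 2 fell. The shares of all genes on each scaling are those given above for the partners.

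Markers of other cells that make Saa3 and Lcn2 moved with the diet as well. All 14 macrophage markers rose (median 2.75), and their summed level ran from 136 to 557 CPM in chow and from 1070.4 to 1811 CPM in cdHFD. Beside these and the neutrophil markers below, 31.0% of all genes were called higher, with a median of -0.02. Trem2 rose by 5.45 ± 0.16, Itgax by 3.96 ± 0.15, Cd68 by 2.80 ± 0.13 and Adgre1 by 2.07 ± 0.22. Of 14 neutrophil markers 8 were tested and all 8 rose (median 2.87), S100a8 by 3.23 ± 0.26, with summed levels of 2.88 to 13.7 CPM in chow and 13.0 to 83.4 CPM in cdHFD. Ly6g was at 0 in 12 of 16 chow and 7 of 16 cdHFD libraries, and Camp, Ngp, Ltf and Mpo stayed at or below 0.724 CPM in every library. The part of these cells in the Saa3 and Lcn2 levels was not tested. Adipocyte markers were lower in sum, at 11.5 to 29.8 CPM in cdHFD against 24.2 to 97.2 CPM in chow. Adrb3 and Lipe led that sum, with chow medians of 16.5 and 23.9 CPM. Adipoq was at 0 in 7 of 16 chow and 13 of 16 cdHFD libraries, Cfd in 2 and 11, and Lep in 15 and 16. Cidea (10 and 1) and Retn (10 and 6) went the other way, Plin1 was at 0 in 6 of each diet, and Tshr in all.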

How the data were processed

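Poly-A RNA of mouse liver was sequenced in paired, non-directional libraries, per the labels' protocols. The deposited table holds raw counts per gene, which the authors made with HISAT2 and featureCounts on GRCm38 (mm10), per the submitters' processing notes, which name DESeq2 as well. Without strand, antisense transcription cannot be told from a gene's own. All 32 columns matched a library's title. Libraries held 29512682 to 54572362 counts.

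Of 54532 genes, 17853 passed edgeR's filter by expression over the 8 groups, all 10 members among them. Counts were scaled by TMM and fitted in edgeR 4.0.16 (R 4.3.3, robust quasi-likelihood, prior count 0.125 for fold changes) with the 8 groups and sex, or sex nested in diet, and p-values were adjusted by Benjamini-Hochberg with a threshold of 0.05. Standard errors came from limma 3.58.1 on log2 CPM (prior count 2). Ratios used 0.5 added to each count. Permutation tests drew 100000 resamples or, within a diet, enumerated all splits. All other settings tried, DESeq2 1.42.0 among them, are under the dependencies on processing. The fit was tested on simulated counts. No sample pairs agreed within counting noise. Members, lists and tests were chosen with earlier results of these data known. Named beyond the 10 were the 4 list genes with the largest called change in each list, and 20 set by name, and some of these are not reported here.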

Additional observations from a re-analysis of the deposited data

Results flagged for a closer look

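Within groups of 4 libraries, 4 of 80 combinations of gene and group held a library farther from the others than Dixon's test allows, where chance flags about 1 in 20 groups. Saa1 in chow ZT14 replicate 1, a male, stood at 114 CPM, above 23.0 to 38.3 CPM in the other 3. Saa3 in cdHFD ZT8 replicate 2, a male, stood at 95.4 CPM, above 33.3 to 35.5 CPM. Hp in chow ZT2 replicate 2, a male, stood at 5834 CPM, while the others were at 4443 to 4504 CPM. Hpx in chow ZT14 replicate 4, a female, was low, at 4285 CPM against 4563 to 4579 CPM.

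The difference between the sexes changed with the diet for 2 genes by edgeR's test of the change itself. The log2 difference of females over males was changed from chow to cdHFD by -2.01 for Orm3 (adjusted p = 0.0231) and by -2.17 for Lcn2 (adjusted p = 2.88e-05).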

How the results depend on the processing

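The 7 members called higher on the cdHFD averaged over times were called higher under every alternative run, and total counts alone added Orm3 (0.75, and 1.70 at ZT8), which was also called higher at ZT8 without a filter on low counts (1.13) and without chow ZT8 replicate 4 (1.79). With total counts alone the members called lower went from 2 to 1 averaged over times and in males, from 3 to 1 in females, from 1 to 0 at ZT8 and from 2 to 1 at ZT14, the list genes called lower from 46 to 29, the correlated pairs from 25 to 11, and members lower in chow females from 1 to 0. All genes called lower went from 5562 to 1632 averaged over times, from 4713 to 1369 in males and from 3970 to 1281 in females. At ZT8 they went from 3466 to 984, at ZT14 from 2812 to 872 and in chow females from 599 to 493. All genes called higher averaged over times went from 5530 to 12353 of 17853. Values of Orm1 then were 0.054 averaged, 0.28 at ZT8, 0.070 at ZT14, 0.28 at ZT20 and 0.10 in males, those of Orm3 0.14 at ZT2 and 0.16 at ZT14, and those of Il6ra, Socs3, Nr3c1 and Stat3 0.14, 0.55, 0.19 and 0.37. Without a filter on low counts, 34789 genes were tested, 1 member was called lower at ZT14, 3 for a diet difference that differed between times, 4 for time in chow, 0 lower in chow females, 2 higher and 3 lower in cdHFD females, and 4 for a lower sex difference on the cdHFD. Of all 34789 genes the same tests called, in that order, 2390, 2639, 6217, 683, 273 and 218, and 514. The cosine and sine fit called 1 member for time in chow, and DESeq2 called 1 for time in cdHFD, beside 3164 and 1739 of all 17853 genes. Without a sex term Orm3 was -0.39 averaged over times, and Saa2 with Orm3 in cdHFD r = -0.022. The difference of Hpx between the sexes in chow was -0.0013 with DESeq2 size factors and with DESeq2. The cause of these changes was not tested.

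Replicate numbers do not pair the samples: same-numbered libraries had a mean correlation of -0.0377, other libraries 0.0128. Numbers follow sex in every chow group, so the block says little of the sex difference there. The replicate block replaced sex, and members higher in chow females went from 3 to 0 and lower from 1 to 0, with differences of 1.96 for Lcn2, 2.80 for Orm3, 1.31 for Orm2 and -0.62 for Saa4, and with Saa2 at -0.10 and Hpx at -0.31 in chow and Hp at -0.060 in cdHFD. Of all 17853 genes that fit called 38 higher and 58 lower in chow females, in place of 1092 and 599. With 1 library left out, 1 to 2 members were lower at ZT8, 1 to 2 at ZT14, 1 to 2 differed by time in chow, 0 to 1 were lower in chow females, and 1 to 2 had a lower sex difference on the cdHFD. Values of uncalled differences then crossed 0 for Orm3 at ZT2 (-0.82 to 0.15), in chow females for Orm1 (-0.12 to 0.018) and Hpx (-0.037 to 0.049), for the change of the sex difference of Saa4 (-0.014 to 0.15) and Orm1 (-0.14 to 0.011), and for Socs3 (-0.11 to 0.071).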
